A study of Rattus norvegicus with 4 samples.

Results

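The proteasome genes were all probes of the array whose gene name began with Psm, one of the letters a to g and a digit, leaving out the 3 inducible catalytic subunits Psmb8, Psmb9 and Psmb10. The rule found 38 genes (46 probes) among the 35655 genes (41012 probes) of the array. One of them, Psmc3ip, carries the name of a partner protein and encodes no part of the proteasome. Its log2 ratios of injured to sham muscle were -0.20, 0.30, -0.07 and -0.26 on days 1, 3, 7 and 14, and it was left out of every count below. The remaining 37 genes (45 probes) fell into 7 alpha-ring and 7 beta-ring genes of the 20S core, 6 ATPase and 3 non-ATPase genes of the base, 7 genes of the lid, 3 chaperones of base assembly and 4 activators. No probe was named Psmd14 or Psmf1, and those genes were not analysed here.

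The RNA came from male Sprague-Dawley rats, from the gracilis, a thin muscle on the inner side of the thigh. The injured muscles had 4 h of ischemia and then 1, 3, 7 or 14 days of reperfusion, and the control muscles were sham-operated. Each day was a single 2-colour Agilent array with 1 injured sample (Cy5) and 1 sham sample (Cy3), all in the same dye orientation. The labels do not say whether the animals were pooled or whether the sham RNA of the 4 arrays was the same. A value for a day therefore has no replicate. The p-values below come from fits in which the 4 days stand as the spread. That spread mixes day, animal and array, which cannot be told apart, and it does not measure variation between animals of the same day.

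The proteasome breaks down proteins tagged with ubiquitin. Its barrel-shaped core holds the proteolytic sites of the beta subunits behind gates formed by the alpha subunits, and the regulatory particle on top unfolds substrates with a ring of ATPases, while the lid removes the ubiquitin chain. In muscle it is a major route of protein loss during wasting, and the particle is also needed by the inflammatory and dividing cells that enter damaged muscle.

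All 37 genes were well above background in both channels on all 4 arrays, and none had a saturated brightest probe. The median log2 ratio of injured to sham over the 37 genes was -0.50 on day 1, -0.61 on day 3, -0.45 on day 7 and -0.33 on day 14, against 0.02, 0.03, 0.04 and 0.05 over all genes measured on those arrays. Ratios were below 0 for 36 of the 37 genes on day 1, where 46.3% of all measured genes were below 0. The counts were 36 on day 3 (44.9% of all genes), 35 on day 7 (44.3%) and 34 on day 14 (43%). In all, 141 of the 148 gene and day values were negative, and 33 genes were negative on all 4 days, as were 13.5% of the 20531 genes measured throughout. Bulk RNA cannot show whether a lower ratio reflects fewer cells of a type or less RNA per cell.

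The shifts were mostly under 2-fold. At least 1.5-fold lower than sham were 16 of the 37 on day 1 (9.39% of all genes), 20 on day 3 (7.97%), 11 on day 7 (4.7%) and 13 on day 14 (5.77%). At least 2-fold lower were 1, 6, 3 and 5 genes, beside 4.92%, 3.95%, 1.23% and 1.57% of all genes on the same days. At least 1.5-fold higher were 0, 1, 0 and 1 genes (Psmd9 on day 3 and Psme1 on day 14), beside 5.14%, 7.72%, 7.47% and 8.17% of all genes. After loess no gene of the set was 2-fold higher on any day, beside 1.24%, 2.47%, 3.12% and 3.15% of all genes. Of the 37, 6 were 1.5-fold lower on all 4 days, where 0.706% of all genes were, and 1 gene, Psmd11, was 2-fold lower on all 4 days, where 0.253% were. After loess the lowest of a gene's 4 ratios was that of day 3 for 17 genes, of day 1 for 10, of day 14 for 8 and of day 7 for 2. No share over all genes stands beside these counts, so they are not read as a trait of the set.

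**Figure D1:**
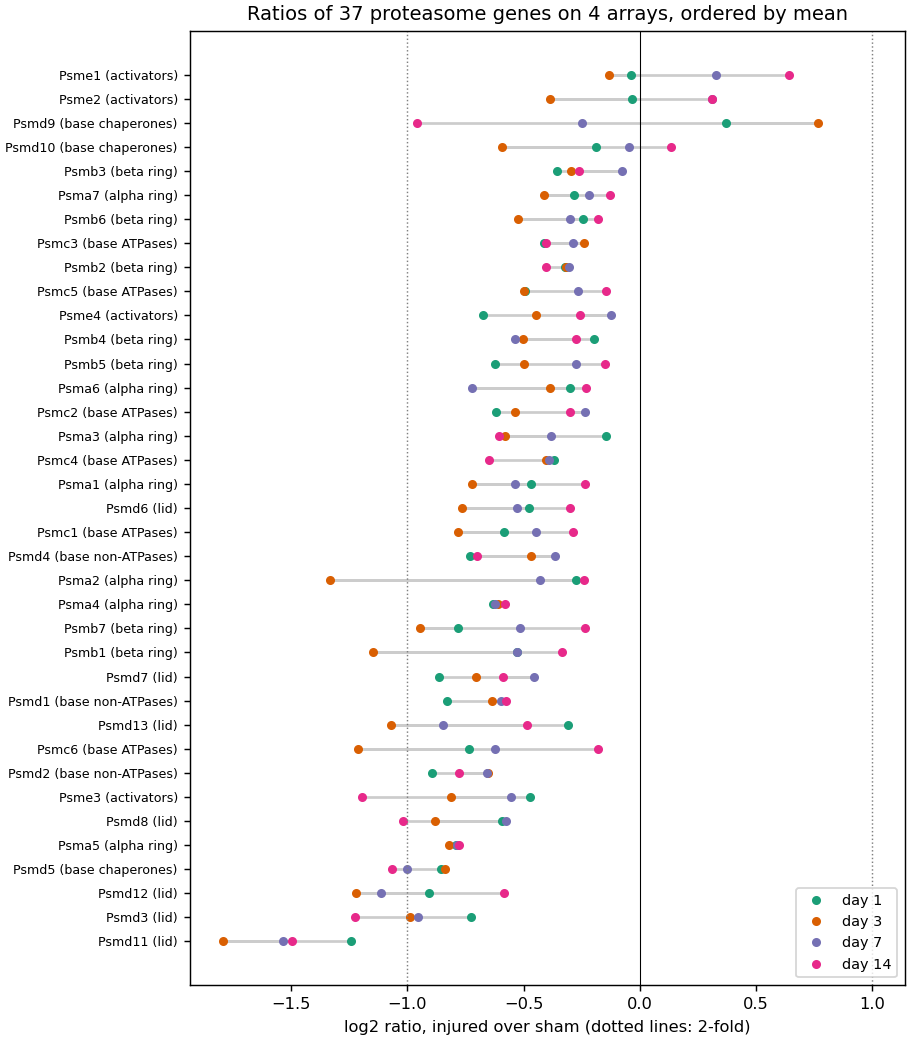
Log2 ratio of injured to sham muscle (horizontal axis) for each of the 37 proteasome genes (rows, ordered by mean), with 1 point per array, coloured by day, and a grey line for the range over the 4 days. After loess 141 of the 148 points lie left of 0, with Psmd11 lowest, and most points lie right of 0 if arrays are only centred on their median.

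The direction depends on how the arrays are normalized. Loess removes a trend of the ratio with brightness, and when each array was only centred on its median the same 37 genes had medians of 0.83, 0.49, 0.33 and 0.41, against 0.37, 0.29, 0.27 and 0.27 over all genes. Then 11, 1, 2 and 2 of the 37 were at least 2-fold higher, beside 21.8%, 17.2%, 11.6% and 12.2% of all genes, and 28, 12, 7 and 8 at least 1.5-fold higher, beside 39.1%, 33.6%, 28.9% and 29.2%. That trend bears on this set because 36 of the 37 genes were among the 5133 brightest genes. Under median centring those 5133 genes as a whole had medians of 1.15, 0.95, 0.75 and 0.71, and the proteasome genes lay below them with differences of -0.32, -0.46, -0.42 and -0.30. After loess they lay below the median of these bright genes with differences of -0.45, -0.60, -0.46 and -0.33.

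Set against the brightest genes as a whole, the position of the set had the same sign under both normalizations. Because loess removes only a trend with brightness, both results are not independent. Brightness was not matched within the bright genes. Below the median of the bright genes were 34, 36, 35 and 34 of the 37 genes after loess and 30, 36, 34 and 33 under median centring. After loess 13, 19, 11 and 11 of the 37 genes lay at least 1.5-fold below that median, beside 20.7%, 19.6%, 11.6% and 13.7% of the bright genes. At least 2-fold below it were 1, 6, 3 and 5, beside 12.6%, 11%, 3.53% and 4.54%. The comparison with bright genes was added after the data were seen.

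**Figure D2:**
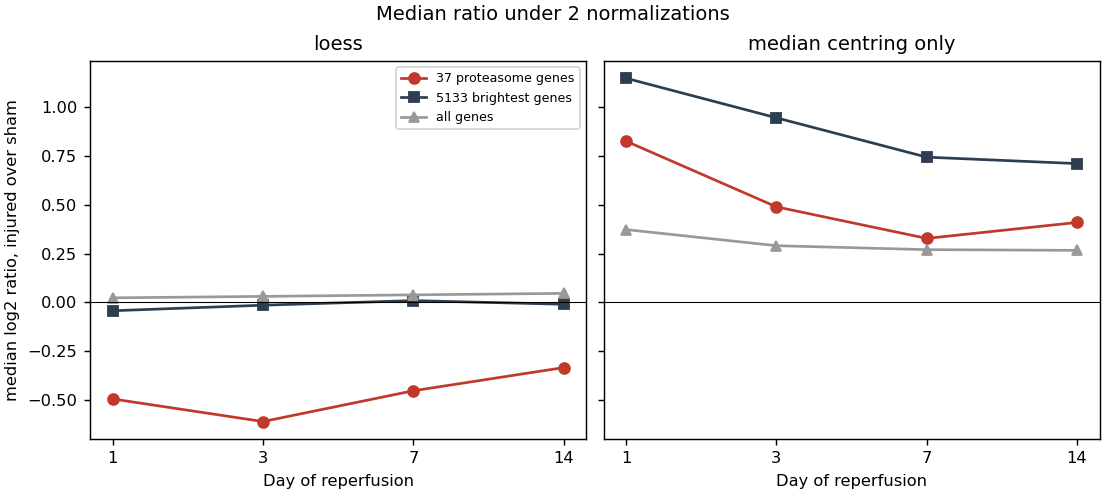
Median log2 ratio of injured to sham (vertical axis) by day for the 37 proteasome genes, the 5133 brightest genes and all genes, after loess (left) and after median centring only (right). The proteasome genes run from -0.61 to -0.33 on the left and from 0.33 to 0.83 on the right, and in both panels they lie below the brightest genes.

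With limma, and adjustment after Benjamini-Hochberg over 20531 genes, the average ratio of the 4 days was compared with 0. Of the 37 proteasome genes 3 fell, Psmd11, Psma5 and Psmd5, and 0 rose, where 0.156% of all genes fell and 0.0244% rose. At an unadjusted p under 0.05, 33 of the 37 were lower, beside 10% of all genes, and 0 were higher, beside 11.7%. The calls needed all 4 arrays: with any 1 of the days left out, 0 of the 37 passed, among 0 to 8 genes called lower in all. Under median centring 0 of the 37 were called lower and 20 higher, among 8394 genes called higher.

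The alpha ring gates the core. Its 7 genes had medians of -0.30, -0.61, -0.54 and -0.24 on days 1, 3, 7 and 14, and all 7 were below 0 on every day. Psma5, a subunit of this ring, had log2 levels (normalized brightness of 1 channel) of 13.40, 13.44, 13.28 and 13.06 in injured muscle and 14.19, 14.26, 14.07 and 13.84 in sham muscle. Every injured level was below every sham level, and its ratios (-0.79, -0.82, -0.79 and -0.78) were the closest together of any of the 37 genes, with an SD over days of 0.020. The probe lies at chr2:203848203-203848262 of rn4, plus strand. The mean ratio of Psma5 was -0.79 ± 0.058 (SE, n = 4 arrays, limma adjusted p = 0.039), and it was 0.32 (adjusted p = 0.12) under median centring.

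Psma2, another alpha subunit, had levels of 10.26, 9.41, 8.33 and 10.37 in injured muscle, against 10.53, 10.74, 8.75 and 10.61 in sham muscle. Here the groups overlapped, with both channels of day 7 low, and the only difference past 2-fold was that of day 3, where the ratio was -1.33. The highest gene of the ring was Psma7, with ratios of -0.28, -0.41, -0.22 and -0.13. Psma4 was nearly as even as Psma5, with ratios of -0.63, -0.61, -0.62 and -0.58 and a mean of -0.61 ± 0.058 (SE, n = 4 arrays, limma adjusted p = 0.063). That value missed the threshold. Psma1, Psma3 and Psma6 had ratios between -0.72 and -0.15, with 0 values past 2-fold.

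In the beta ring, which carries the proteolytic sites, all 7 genes were again below 0 on every day, and the class stood at -0.36, -0.50, -0.31 and -0.26. Psmb1, a structural subunit without a proteolytic site, had levels of 11.82, 10.81, 10.90 and 11.82 in injured muscle and 12.35, 11.95, 11.42 and 12.15 in sham muscle. Its ratio of -1.15 on day 3 was the only one of this ring past 2-fold, and the injured levels of days 1 and 14 lay above the sham level of day 7. Psmb3, also structural, was the highest of the ring, with ratios of -0.36, -0.29, -0.08 and -0.26. Psmb2 was even, at -0.32, -0.32, -0.31 and -0.40, and Psmb4 ranged between -0.54 and -0.20.

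The 3 subunits with constitutive proteolytic sites were chosen for naming after their values were seen. Psmb5, the chymotrypsin-like subunit, had ratios of -0.62, -0.50, -0.28 and -0.15. Psmb6, the caspase-like subunit, had -0.24, -0.52, -0.30 and -0.18, and Psmb7, the trypsin-like subunit, -0.78, -0.94, -0.51 and -0.24. After loess all 3 were nearest to sham on day 14, but under median centring they were above 0 on every day. Psmb7 was then only just above 0 on day 3, at 0.00095, and farthest from sham on day 14, at 0.51. In the deposited ratios Psmb5 was nearest to sham on day 7. With the mean of the 4 sham channels Psmb5 was nearest on day 3, at -0.19, and at -0.43 on day 14, while Psmb6 and Psmb7 were nearest on day 14. None of the 3 passed the limma test of the mean, with adjusted p of 0.158, 0.158 and 0.137.

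The 6 ATPases of the base form the ring that unfolds substrates. Their medians were -0.54, -0.52, -0.34 and -0.30, with all 6 below 0 on every day and 0 past the limma test (adjusted p from 0.109 to 0.156). Psmc6 had levels of 10.76, 9.62, 9.32 and 11.10 in injured muscle, against 11.49, 10.84, 9.94 and 11.28 in sham muscle. Both channels of this gene were low on day 7 and the groups overlapped, and the ratio passed 2-fold on day 3 alone, at -1.21. Its second probe gave -0.68 on that day, a gap of 0.53 that was the widest between probes of any of the 7 genes with more than 1 probe. Psmc3, the highest ATPase by mean, had ratios of -0.41, -0.24, -0.29 and -0.40. The other ATPases, Psmc1, Psmc2, Psmc4 and Psmc5, had ratios between -0.78 and -0.15.

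Psmd1, Psmd2 and Psmd4 complete the base. Psmd1 and Psmd2 are its large scaffold proteins, and Psmd4 is a receptor for ubiquitin chains. Their class medians were -0.83, -0.64, -0.60 and -0.70. Psmd2 had levels of 13.66, 13.94, 13.41 and 13.46 in injured muscle and 14.56, 14.60, 14.07 and 14.24 in sham muscle. These groups did not overlap, the 4 ratios were -0.89, -0.65, -0.66 and -0.78, and the adjusted p of the mean was 0.066. Psmd1 stood at -0.83, -0.64, -0.60 and -0.58 and Psmd4 at -0.73, -0.47, -0.36 and -0.70.

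**Figure D3:**
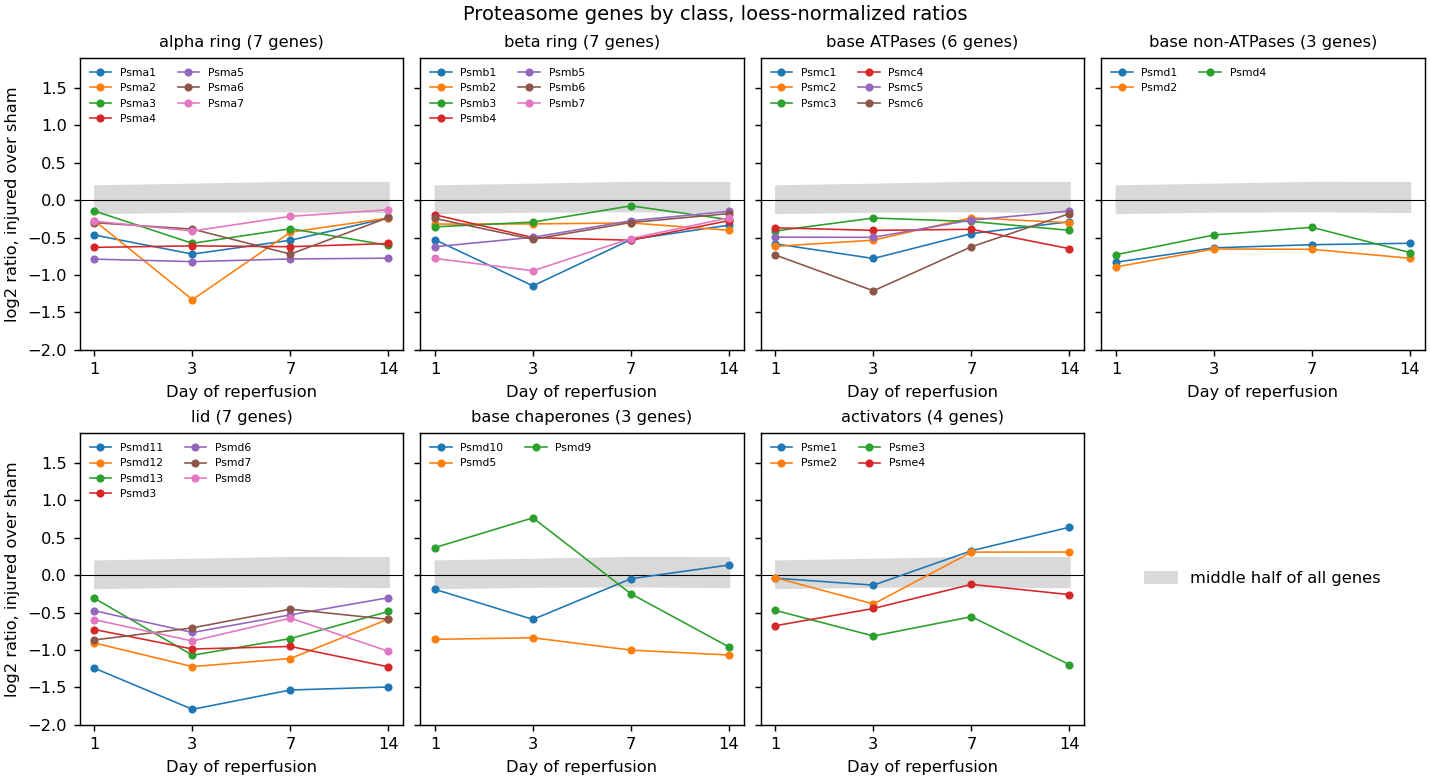
Log2 ratio of injured to sham after loess (vertical axis) by day of reperfusion, 1 panel per class and 1 line per gene, and the grey band is the middle 50% of all genes. The lid panel reaches lowest, at -1.79 for Psmd11 on day 3, and in the activator panel Psme1 and Psme2 are above 0 on days 7 and 14, while under median centring most of these lines lie above 0.

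The lid, the part that strips ubiquitin from substrates, had the lowest medians of the large classes, at -0.73, -0.99, -0.85 and -0.59. The 14 genes of the core stood at -0.34, -0.55, -0.47 and -0.25, so that the lid minus the core was -0.39, -0.44, -0.38 and -0.34. Below the core's median were 6, 7, 6 and 7 of the 7 lid genes. This difference was negative on every day under each of the 7 settings, from -0.64 to -0.20, median centring included, where it was -0.55, -0.61, -0.51 and -0.39. The settings are not independent, since all use the same arrays. Requiring both channels above background left the loess values of these genes unchanged. The ranges overlapped, since the core reached down to -1.33 and the lid up to -0.70 on day 3. Lid and core were not matched for brightness. On day 1 sham levels ran from 9.31 to 12.06 in the lid and from 10.53 to 14.57 in the core. Under median centring the 5133 brightest genes had a median of 1.15 on day 1, against 0.774 in the next 5133 by brightness. The part of brightness in the lid minus core difference was not tested. The same difference between ATPases and core was -0.20, 0.03, 0.13 and -0.05 after loess, with no constant sign. It was below 0 on every day in the deposited ratios (-0.27, -0.07, -0.46 and -0.09) and above 0 on every day with the mean of the 4 sham channels (0.03, 0.05, 0.285 and 0.02). The 3 non-ATPases of the base (-0.83, -0.64, -0.60 and -0.70) also lay below the core on every day after loess, and below the lid on days 1 and 14. Under median centring they stood at 0.67, 0.56, 0.36 and 0.10, against 0.987, 0.538, 0.309 and 0.525 in the core, above it on days 3 and 7.

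Psmd11, a lid subunit that contacts both the base and the core, was the lowest gene of the set. Its levels were 10.72, 10.28, 10.74 and 10.40 in injured muscle, against 11.97, 12.07, 12.28 and 11.89 in sham muscle. The highest injured level was more than a unit below the lowest sham level. The differences were 2.37-, 3.47-, 2.90- and 2.82-fold lower on days 1, 3, 7 and 14, with a mean ratio of -1.52 ± 0.11 (SE, n = 4 arrays, limma adjusted p = 0.037). Under median centring the mean was -0.56 (adjusted p = 0.056), and the ratio of day 1 was then 0.04.

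Across the 7 settings and 4 days Psmd11 was the lowest of the 37 genes in 26 of 28 cases. These cases are not independent, since the settings share the same arrays and requiring both channels above background repeats the loess values. The exceptions were Psmc2, at -2.11 in the deposited ratios of day 7, and Psma2, at -1.84 on day 7 when the mean sham channel was used. The probe of Psmd11 matches chr10:68708038-68708474 of the rn4 build, on the plus strand. Being a single probe, it has no second measurement on the array.

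Psmd3 and Psmd12, both scaffold subunits of the lid, came next. Psmd3 had levels of 9.79, 9.55, 9.74 and 9.23 in injured muscle and 10.51, 10.54, 10.69 and 10.46 in sham muscle, with no overlap, and it was 2.34-fold lower on day 14. Psmd12 had levels of 11.16, 10.81, 10.14 and 11.42 in injured muscle and 12.06, 12.03, 11.25 and 12.01 in sham muscle. It was 2.33-fold lower on day 3 and 2.16-fold lower on day 7, and its groups overlapped, with a low sham level on day 7.

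The limma adjusted p of the mean was 0.072 for Psmd3 and 0.092 for Psmd12. Of the other lid genes, Psmd8 had ratios of -0.59, -0.88, -0.57 and -1.02 and Psmd13 had -0.31, -1.07, -0.85 and -0.48, each past 2-fold on 1 day. Psmd6, the highest lid gene by mean, had -0.48, -0.77, -0.53 and -0.30. Psmd7, the inactive partner of the lid's deubiquitinase, was measured by 3 probes that gave between -0.95 and -0.24 over the 4 days.

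**Figure D4:**
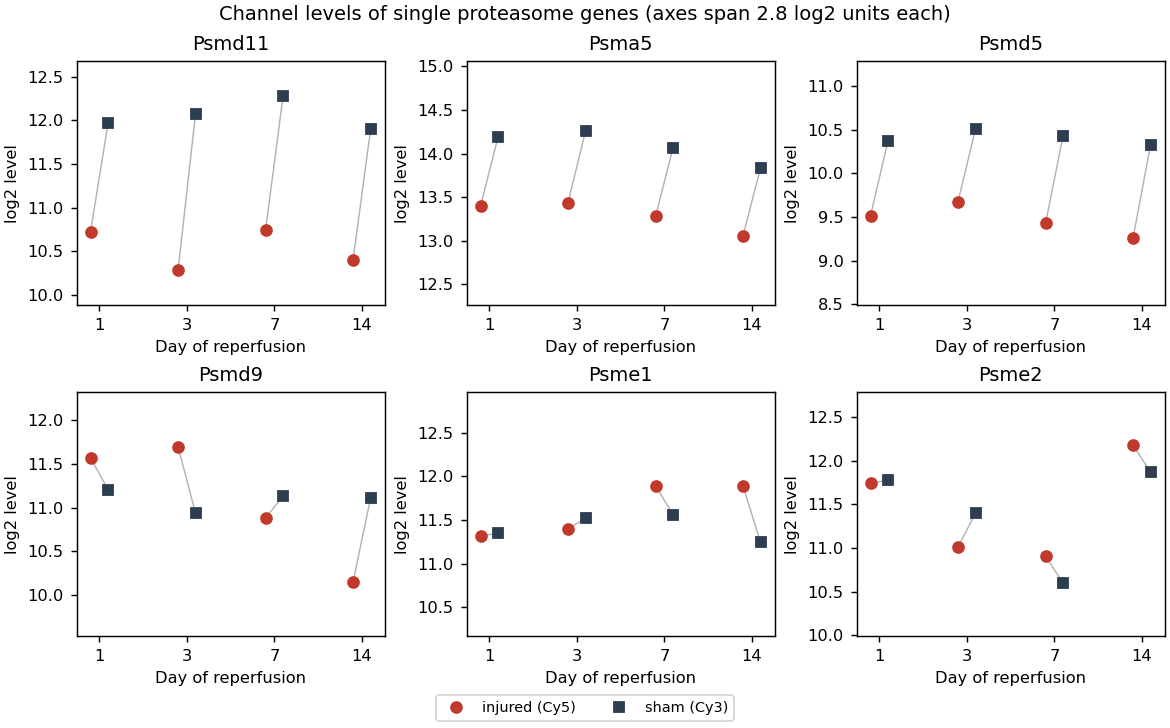
Log2 level of the injured (Cy5, circles) and sham (Cy3, squares) channel on each array for 6 proteasome genes, joined within an array, with every vertical axis spanning 2.8 units. Injured levels are below all sham levels for Psmd11, Psma5 and Psmd5, and change sides between days 3 and 7 for Psmd9, Psme1 and Psme2, all after loess, while under median centring Psma5 has a positive mean ratio and Psme1 and Psme2 lie above sham on every day.

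The 3 chaperones that assemble the base went different ways. Psmd5 had levels of 9.52, 9.68, 9.43 and 9.26 in injured muscle, against 10.37, 10.51, 10.43 and 10.33 in sham muscle, with no overlap (probe at chr3:13862387-13862446 of rn4, minus strand). Its ratios were -0.86, -0.84, -1.002 and -1.07, and the mean was -0.94 ± 0.072 (SE, n = 4 arrays, limma adjusted p = 0.043). Under median centring the mean of Psmd5 was -0.08 (adjusted p = 0.68).

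Psmd9 was the only gene of the 37 above sham on days 1 and 3 (probe at chr12:34500658-34500717 of rn4, plus strand). Its levels were 11.57, 11.70, 10.88 and 10.15 in injured muscle and 11.20, 10.93, 11.13 and 11.11 in sham muscle. The sham levels stayed within 0.27, while the injured level was high on days 1 and 3 and low on days 7 and 14, giving ratios of 0.37, 0.77, -0.25 and -0.96 after loess and 1.66, 1.77, 0.52 and -0.24 under median centring, where day 7 changed sign. The mean of days 7 and 14 was -0.60, against 0.57 for days 1 and 3, a difference of -1.17 ± 0.30 (SE, n = 2 arrays a side, limma adjusted p = 0.15). Psmd10, known as gankyrin, stood at -0.19, -0.59, -0.05 and 0.14.

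Among the activators, Psme1 and Psme2 form a mixed ring that opens the core and is induced by interferon-gamma. Psme1 had levels of 11.31, 11.39, 11.89 and 11.88 in injured muscle, against 11.35, 11.53, 11.56 and 11.24 in sham muscle. Its partner Psme2, named after its values were seen, had 11.74, 11.01, 10.91 and 12.18 in injured muscle, against 11.78, 11.40, 10.60 and 11.87 in sham muscle. Both genes were below 0 on days 1 and 3 and above 0 on days 7 and 14, with ratios of -0.04, -0.13, 0.33 and 0.64 for Psme1 and -0.03, -0.38, 0.31 and 0.31 for Psme2, whereas under median centring both were above 0 on every day, at 1.24, 0.88, 1.13 and 1.40 for Psme1 and 1.29, 0.61, 1.06 and 1.09 for Psme2. With the mean of the 4 sham channels Psme2 stood at 0.33, -0.40, -0.50 and 0.77, so that days 1 and 7 changed sign, and in the deposited ratios Psme1 and Psme2 were just above 0 on day 1, at 0.01 and 0.02. The sham levels of Psme2 alone ran between 10.60 and 11.87 between arrays, so its ratios rest on the pairing within each array.

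After loess the late minus early difference (days 7 and 14 minus days 1 and 3) was 0.57 ± 0.16 for Psme1 (0.48 against -0.09, SE, n = 2 arrays a side, limma adjusted p = 0.18) and 0.52 ± 0.17 for Psme2 (0.31 against -0.21, limma adjusted p = 0.22). Neither passed, nor did any other gene of the set: 0 of 37 were called lower and 0 higher by limma, beside 0.229% and 1.7% of all genes. At an unadjusted p under 0.05, 1 was lower (Psmd9, beside 7.36% of all genes) and 3 were higher (Psme1, Psme2 and Psmb7, beside 11.9%). With 2 arrays a side, a missed threshold does not show that early and late ratios did not differ. The median difference over the 37 genes was 0.148 after loess, beside 0.0382 over all genes. Under median centring its sign changed, to -0.265, beside -0.0479 over all genes.

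The brightest probes of the other activators lay below sham. Psme3, the nuclear relative of that pair, had levels of 11.34, 11.03, 9.74 and 10.07 in injured muscle and 11.81, 11.84, 10.29 and 11.27 in sham muscle. Both channels were low on day 7, and the largest ratio was that of day 14, 2.29-fold lower. The mean of Psme3 was -0.76 ± 0.14 (SE, n = 4 arrays, limma adjusted p = 0.12). Psme4, a large nuclear activator, stood at -0.68, -0.45, -0.12 and -0.26, and its second probe at -0.49, -0.23, 0.24 and -0.28, with the other sign on day 7.

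Upstream sequences of 4 genes are shown because their ratios stood at the edges of the set: Psmd11 was the lowest, Psmd9 the highest on the early days, and Psme1 and Psme2 the highest on the later days. Each run is the 250 bases before the gene's start in RefSeq (GRCr8), read 5′ to 3′ on the gene's strand. Capitals mark every match, on either strand, to TGACNNNGC, the core of the antioxidant response element, or to GAAANNGAAA, in which 2 copies of GAAA frame 2 bases of any kind, a form of the interferon-stimulated response element. Psme1 lies at chr15:33038721-33038970 (plus strand), Psme2 at chr15:33052752-33053001 (minus), Psmd9 at chr12:39018265-39018514 (minus) and Psmd11 at chr10:65932093-65932342 (plus). The starts of Psme1 and Psme2 are 13.8 kb apart on chromosome 15, on opposite strands.
Psmd11: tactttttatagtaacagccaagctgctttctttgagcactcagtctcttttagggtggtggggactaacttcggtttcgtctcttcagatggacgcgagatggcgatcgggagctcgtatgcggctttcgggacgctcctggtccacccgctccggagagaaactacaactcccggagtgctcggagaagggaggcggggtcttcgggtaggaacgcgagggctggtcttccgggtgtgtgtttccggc
Psmd9: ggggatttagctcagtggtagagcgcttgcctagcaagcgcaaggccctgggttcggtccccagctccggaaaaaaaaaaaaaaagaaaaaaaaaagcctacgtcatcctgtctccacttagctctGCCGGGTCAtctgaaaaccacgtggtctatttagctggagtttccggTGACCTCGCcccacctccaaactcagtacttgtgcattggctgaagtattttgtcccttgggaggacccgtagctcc
Psme1: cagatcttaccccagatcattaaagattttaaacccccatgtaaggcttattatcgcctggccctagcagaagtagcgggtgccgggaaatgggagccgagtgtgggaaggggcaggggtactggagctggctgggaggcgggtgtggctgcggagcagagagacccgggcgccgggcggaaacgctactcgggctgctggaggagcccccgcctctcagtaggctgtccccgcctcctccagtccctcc
Psme2: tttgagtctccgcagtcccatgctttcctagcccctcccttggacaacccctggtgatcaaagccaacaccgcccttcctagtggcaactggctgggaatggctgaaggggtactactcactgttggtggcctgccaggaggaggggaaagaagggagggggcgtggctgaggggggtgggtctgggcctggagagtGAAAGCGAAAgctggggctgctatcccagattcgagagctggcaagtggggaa

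Promoters were found for 34 of the 37 genes, all but Psma7, Psmd6 and Psmd12. TGACNNNGC stood in 7 of the 34 (20.6%), against 10.1% of 33469 rat promoters of the same length. The 7 genes were Psma3, Psmb2, Psmb5, Psmb6, Psmd1, Psmd9 and Psme4, and Psmd9 held the motif at 2 places, -124 and -77 from the start. GAAANNGAAA stood in 4 of the 34 (11.8%), against 3.41% of all promoters: in Psma4, Psmb3, Psmd7 and, as GAAAGCGAAA at -53, in Psme2. Neither pattern was in the window of Psme1 or Psmd11. Among 3 shorter patterns common at housekeeping genes, GGGCGG (the GC box) was in 24 of the 34 (70.6%, against 30.5%), CGGAAG (an ETS site) in 16 (47.1%, against 13.9%) and CCAAT in 17 (50%, against 34%), each searched on both strands. Letters of different patterns overlapped at 2 places, both in Psmb2. These are matches of letters only, with no measurement of binding.

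The 3 inducible catalytic subunits that replace Psmb5, Psmb6 and Psmb7 in the immunoproteasome had medians of 0.25, 0.21, 0.95 and 1.503. Psmb9, which takes the place of Psmb6, had ratios of 0.25, 0.54, 1.87 and 1.503, and Psmb8, which takes the place of Psmb5, had 1.07, -0.03, 0.95 and 1.52. Psmb10 stood at 0.23, 0.21, 0.53 and 0.62. Of these 3 genes 0 passed either limma test, with late minus early at 1.29 for Psmb9 (adjusted p = 0.074). The 17 interferon response genes had medians of 0.87, -0.48, 2.48 and 1.56 after loess. These were high on the days when Psme1 and Psme2 were above sham after loess and also on day 1, when they were not. Under median centring Psme1 and Psme2 were above sham on every day. The summed level of the 17 interferon genes was 35500, 17800, 110000 and 77300 intensity units in injured muscle, against 18500, 19200, 12400 and 15100 in sham muscle. The part of interferon genes in the ratios of Psme1 and Psme2 was not tested.

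Genes that work with the proteasome were read from lists. None of the 16 cofactors, 9 COP9 signalosome genes, 9 genes for ubiquitin and its activating enzymes and 10 genes of Vcp and its adaptors passed either limma test, in either direction. The 16 cofactors, such as shuttle factors and assembly factors, had medians of -0.33, -0.35, -0.22 and -0.29, with 14, 15, 13 and 11 of 16 below 0. Txnl1, a thioredoxin-like protein bound to the particle, was even at -0.82, -0.74, -1.003 and -0.85, and its adjusted p of 0.052 (limma, mean over the 4 arrays) missed the threshold. Nfe2l1, the transcription factor that raises proteasome genes when the proteasome is inhibited, had ratios of -1.63, -1.45, -0.23 and -0.55. Nfe2l2, its relative that responds to oxidants, had 0.31, 0.23, -0.32 and -0.22.

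The COP9 signalosome is built on the plan of the lid. Its 9 genes had medians of -0.41, -0.71, -0.19 and -0.11, with 8, 8, 7 and 6 below 0, and of 0.62, 0.18, 0.51 and 0.52 under median centring, where the lid stood at 0.44, -0.07, -0.20 and 0.13. The difference between the signalosome and the lid was not tested. The 9 measured genes for ubiquitin and its activating enzymes had medians of -0.06, -0.19, -0.01 and -0.02. Genes of the unfoldase Vcp and its adaptors stood at -0.32, -0.35, -0.41 and -0.54, and the adaptor Nsfl1c at -0.71, -0.68, -0.70 and -0.70 (limma adjusted p = 0.0501).

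Ubiquitin-conjugating enzymes (E2) had medians of 0.13, -0.16, -0.27 and -0.22, and deubiquitinases -0.16, -0.20, -0.13 and -0.09. The ubiquitin ligases of muscle stood at -0.72, -0.30, -0.43 and -0.26. Trim63, the ligase of sarcomere proteins known from atrophy, had ratios of -3.44, -4.82, -1.73 and -0.59, and did not pass the limma test of the mean (adjusted p = 0.167). Fbxo32, the other atrophy ligase, stood at -1.26, -0.48 and -0.54 on days 1, 7 and 14. On day 3 its sham channel was well above background but its injured channel was not, and the ratio of that day is not given. In limma's late minus early test, where 1.7% of all genes rose, 1 of 16 E2 genes tested rose, Ube2d1 at 2.43 (adjusted p = 0.024), as did 2 of 13 ligase genes, Asb2 at 4.38 (adjusted p = 0.034) and Trim54 at 2.62 (adjusted p = 0.021). Of 18 deubiquitinases 1 rose, Usp2 at 2.02 (adjusted p = 0.019). These 3 lists had 0 genes past the test of the mean and 0 past the late minus early test in the other direction.

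RNA of fibre markers differed from sham on the same arrays. Bulk RNA cannot show whether this reflects a change in fibres or in RNA per fibre. All 13 fast-fibre and all 11 slow-fibre markers were above background in both channels on every array, as the labelled tissue requires. The summed level of the 13 fast-fibre markers was 68800, 32300, 302000 and 495000 intensity units in injured muscle, against 617000, 560000, 323000 and 231000 in sham muscle, so that the sham sums differed between arrays too. That of the 11 slow-fibre markers was 20700, 20700, 54900 and 52700 in injured muscle, against 259000, 253000, 241000 and 223000 in sham muscle. The summed level of the 37 proteasome genes was 186000, 177000, 171000 and 176000 in injured muscle, against 267000, 262000, 238000 and 234000 in sham muscle. Of the marker genes, 5 fast-fibre genes and 1 slow-fibre gene were saturated on 1 or more arrays, so those sums are only rough. Over the 8 unsaturated fast-fibre genes the sums were 19420, 10310, 100300 and 262200 in injured muscle, against 154800, 159900, 86280 and 72010 in sham muscle. Over the 10 unsaturated slow-fibre genes they were 14080, 15120, 48690 and 38090 in injured muscle, against 145200, 146300, 142800 and 130300 in sham muscle.

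Slow-fibre markers had median ratios of -4.03, -4.25, -3.13 and -2.26, and fast-fibre markers -3.09, -4.24, -0.08 and 1.25. Medians of macrophage markers were 0.47, -0.03, 0.48 and -0.22 (14 genes), of neutrophil markers 0.85, -0.18, -0.22 and -0.46, of T cell markers 0.20, 0.09, 0.79 and 0.82, of endothelium 0.12, 0.13, 0.21 and 0.14, of fibroblast matrix genes -0.80, 1.09, 0.86 and 1.498, and of cell cycle genes 0.09, 1.25, -0.48 and -0.78. Cell cycle genes were highest on day 3, the day on which the proteasome genes were lowest after loess, though under median centring and with the mean of the 4 sham channels they were lowest on day 7. Fast-fibre markers had a median above 0 on day 14, when that of the proteasome genes was below 0 after loess. The part of cell makeup in the proteasome ratios was not tested.

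By the distance between 4 ratios and the medians of the 37 genes, the most alike of 10745 other genes with a symbol was Septin6, at a distance of 0.09 on the log2 scale, with ratios of -0.47, -0.58, -0.43 and -0.26. Inpp5a, Mrps22, Spryd4 and Rnf113a2 followed at 0.146 to 0.155. Each is compared over the same 4 arrays, and 0 of the 37 proteasome genes themselves lay closer to their medians than these.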

How the data were processed

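RNA of injured and sham muscle was read on 4 arrays, 1 per day of reperfusion, each with 1 injured and 1 sham channel. Per the file headers the authors' scans were extracted with Feature Extraction 10.5.1.1, while the submitters' processing notes name version 9.5.3. Per the file headers, the deposited intensities are the mean pixel signal and the median local background of each spot, both without normalization. The deposited LogRatio is a log10 ratio of injured (red) over sham (green) after dye normalization by the software, as the headers state. The deposited value table holds log2 ratios and equalled LogRatio times log2(10) to within 0.005 (r = 1, every column's median 0), which settles its scale and direction. The deposited flags for background, saturation and outliers were used as given.

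Intensities were background-corrected (normexp, offset 50) and loess-normalized within each array with limma 3.58.1 in R 4.3.3, leaving out control and outlier spots. Saturated spots were kept, repeated spots were averaged, and each gene was read from its brightest probe on days when 1 or both channels were well above background. Channel levels came from quantile normalization of mean brightness, and a level is compared only within a gene. With 1 array a day, 2-fold and 1.5-fold are rules of size. The mean over 4 arrays and the mean of days 7 and 14 minus that of days 1 and 3 were tested with limma, two-sided, with Benjamini-Hochberg adjustment at 0.05 over 20531 genes. The number of arrays limits the precision. The tests were checked on simulated data. Probe names were updated to RefSeq symbols (GRCr8) for 10835 probes by accession, 5196 by symbol and 3478 by older symbol, and the other 21503 kept the file's name.

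Values by array are given for genes that passed 2-fold on 1 or more days, the highest and lowest gene of each class by mean, and those past either test. Other proteasome genes, and Nfe2l2 and Fbxo32, were named after their values were seen. From each other list up to 4 genes farthest from sham could be named. The members, lists and rules were chosen with earlier results of these data known. Alternatives were median centring only, no background correction, the deposited ratios, both channels above background, the mean of the 4 sham channels, the median over probes, leaving out each day and scan session as a block.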

Additional observations from a re-analysis of the deposited data

Results flagged for a closer look

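With 4 values per gene and channel, a lone value far from the other 3 is found by chance in about 1 of 20 groups. Among 37 proteasome genes some such values are therefore expected by chance alone. In this set 2 sham levels stood out in this way. The sham level of Psma2 was 8.754 on the array of day 7, against 10.53 to 10.74 on the other arrays. That of Psmd12 was 11.25 on the same array, against 12.01 to 12.06. Across all genes the sham channel of day 7 correlated least with the others (r from 0.967 to 0.979) and was well above background for 34.7% of probes. At least 2-fold apart between sham channels were 4, 2 and 3 proteasome genes in the pairs with day 7 and 0 in the other pairs. No share over all genes stands beside these counts, so they are not read as a trait of the set. The part of the day 7 sham channel in the ratios of that day was not tested.

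For 3 genes both early ratios after loess were on one side of 0 and both later ratios on the other. No share over all genes stands beside this count, so it is not read as a trait of the set. The late minus early difference was 0.571 for Psme1 and 0.519 for Psme2, both above sham on days 7 and 14, and -1.17 for Psmd9, above sham on days 1 and 3. Under median centring Psme1 and Psme2 were above 0 on every day and Psmd9 on days 1, 3 and 7, and with the mean of the 4 sham channels Psme2 was at 0.33 on day 1 and -0.50 on day 7. The opposite signs are a description, and limma did not call these differences (adjusted p = 0.183, 0.220 and 0.155), which with 2 arrays a side does not show that the days did not differ.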

How the results depend on the processing

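Median centring in place of loess turned the sign of the set: the medians were 0.827, 0.490, 0.328 and 0.410 on days 1, 3, 7 and 14. At least 2-fold lower were then 0 of the 37 on each day, beside 1.89%, 1.61%, 0.332% and 0.413% of all genes. At least 1.5-fold lower were 0, 1, 1 and 1, beside 3.4%, 2.91%, 0.847% and 1.22%. Median centring gave 0 of 37 genes lower and 20 higher by the mean, a mean of 0.319 for Psma5 and a ratio of 0.0411 for Psmd11 on day 1. Over all genes it gave 133 lower and 8394 higher, against 32 and 5 after loess. Loess removes the trend with brightness, and 36 of the 37 genes are bright. Against the 5133 brightest genes, added after the data were seen, the median under median centring was -0.321 on day 1 and -0.458 on day 3.

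On day 7 the deposited ratios gave 6 genes 2-fold and 17 genes 1.5-fold lower, and the mean of the 4 sham channels gave 7 and 17, against 3 and 11 after loess. Of all genes 8.05% and 15.9% were then that much lower in the deposited ratios and 3.03% and 8.49% with the mean sham channel, against 1.23% and 4.7% after loess. In the deposited ratios of day 7 Psmc2 was at -2.11 and Psmc5 at -1.44, against -0.24 and -0.27 after loess. The cause was not tested. By the mean they gave 3 of the 37 lower, of which 2 were shared with loess. Over all genes the deposited ratios gave 178 lower and 599 higher by the mean and 12 lower by late minus early, against 47. Requiring both channels above background gave 1 gene lower by the mean, Psmd11, and 0 genes higher in all. Leaving out a day gave 0 to 0 of the 37 lower by the mean, with fewer arrays in the fit. The medians kept their sign under no background correction, the deposited ratios, the median over probes and the mean of the 4 sham channels. With scan session as a block the same 3 genes were called, with the array of day 14 alone in its session. No paired analysis was possible because every group has a single replicate and each ratio already pairs its injured and sham sample on 1 array. Without dye swap, dye and group cannot be told apart.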

Other observations

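Proteasome relatives that the name rule missed, because the array lists them under older names, were found through RefSeq symbols after the data were seen. Psmg1, Psmg2 and Psmg3, chaperones of core assembly, had ratios on days 1, 3, 7 and 14 of -0.16, -0.10, -0.28 and -0.20, of 0.05, -0.35, -0.12 and -0.18, and of -0.29, -0.28, -0.41 and -0.28. Psmb11, the beta subunit of the thymus, stood at -0.14, 0.06, 0.01 and 0.10, with its sham channel not well above background on any of the 4 arrays. Psma8, the testis alpha subunit, was not well above background in either channel on any of them.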
